A study of Mus musculus with 71 samples.

Results

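The heat shock genes of the cytosol and the mitochondria were followed in terminal whole blood of mice with HOCl-induced disease. They comprise 10 genes chosen by symbol: Hspa8, Hsp90aa1, Hsp90ab1, Hspa1a, Hspa1b, Dnajb1, Hsph1, Hspd1, Hspe1 and Hsf1. The count table holds 55416 genes and all 10 of these, whereas the table of normalised values holds 10508 genes and 8 of them. Hspa1a and Hspa1b were absent from the normalised table and were read from the counts. All mice were female Balb/c AnNRj, 6 weeks old at the start. The 11 control mice received PBS. The 12 HOCl mice received intradermal hypochlorous acid on 5 days per week for 6 weeks, a chemically induced model of systemic sclerosis. The 4 other groups, each of 12 mice, received the same HOCl and are labelled E07, D11, D06 or BPR21. E07 and D11 are monoclonal antibodies against galectin-3, injected subcutaneously at 20 mg per kg, while what D06 and BPR21 are and how they were given is not stated in the sources used here. Control and induced mice were kept in separate cages, so cage and group cannot be told apart. One HOCl mouse, number 8, had counts but no normalised values, which leaves 11 HOCl mice in tests on the latter.

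Heat shock proteins are chaperones: they hold, fold or refold other proteins and prevent their aggregation. In the cytosol the HSP70 proteins work in an ATP-driven cycle with J proteins, which bring the client and stimulate ATP hydrolysis, and with nucleotide exchange factors, which release it. HSP90 then takes over selected clients such as kinases and steroid receptors. In the mitochondrial matrix the HSP60 ring, closed by its HSP10 lid, folds imported proteins. The transcription factor HSF1 binds inverted repeats of the unit nGAAn, the heat shock elements, and raises many of these genes together when unfolded proteins accumulate. Whole blood mixes leukocytes, platelets and young red cells, so fewer cells of a type and less RNA per cell cannot be told apart in any value given here.

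Promoter sequences of RefSeq (GRCm38.p6) were at hand for 6 of the 10 genes, and a search for inverted repeat pairs, TTCNNGAA or GAANNTTC, each of which reads the same on both strands and can overlap the other, covered the 250 bases before the start. Such a pair stood in the window of 5 genes, namely Hspa1a, Hspa1b, Hsph1, Hspd1 and Hspe1, and in that of 14.5% of all 27025 genes with a window. No match was found in the windows of Dnajb1. The 3 promoters below are shown because they carry the pair, in capitals, in an HSP110, an HSP70 and a chaperonin gene. They lie at chr5:149636337-149636586 (minus strand), chr17:34959239-34959488 (minus strand) and chr1:55087898-55088147 (plus strand). The pair began 33 bases before the start of Hsph1 and 104 bases before that of Hspa1b. In Hspe1, 3 overlapping pairs began between 89 and 79 bases before the start. The windows of Hspe1 and Hspd1 overlapped by 285 of 300 bases on opposite strands, so the same pairs serve as matches for both genes. The promoters of Hspa1a and Hspa1b had the same base at 247 of 250 positions.
Hsph1: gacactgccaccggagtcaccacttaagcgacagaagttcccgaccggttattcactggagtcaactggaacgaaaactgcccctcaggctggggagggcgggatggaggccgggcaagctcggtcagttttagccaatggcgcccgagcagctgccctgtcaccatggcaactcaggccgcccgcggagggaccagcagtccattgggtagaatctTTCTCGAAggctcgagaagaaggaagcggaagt
Hspa1b: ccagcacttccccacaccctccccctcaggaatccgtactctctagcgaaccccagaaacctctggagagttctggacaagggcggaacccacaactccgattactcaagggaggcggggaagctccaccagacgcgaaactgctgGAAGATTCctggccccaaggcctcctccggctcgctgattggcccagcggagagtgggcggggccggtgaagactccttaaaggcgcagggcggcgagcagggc
Hspe1: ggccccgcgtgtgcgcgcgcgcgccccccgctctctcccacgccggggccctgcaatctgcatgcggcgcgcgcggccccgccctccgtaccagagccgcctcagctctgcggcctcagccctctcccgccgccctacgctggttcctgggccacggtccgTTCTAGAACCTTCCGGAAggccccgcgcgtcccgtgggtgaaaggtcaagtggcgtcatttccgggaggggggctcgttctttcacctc

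Depth was similar in all groups, with 11932855 to 15948972 reads counted on genes per mouse. The libraries differed more in composition: a list of 34 erythroid genes took a mean of 7.69% of counts in control mice, 12.7% in HOCl, 7.20% in E07, 9.37% in D11, 10.9% in D06 and 9.67% in BPR21 mice. None of the genes of the neutrophil, monocyte, platelet and erythroid lists found in the count table was at 0 in every mouse of a group. Normalised values (variance-stabilised counts, vst, on a log2-like scale) correct for size factors, whose means were 1.29 in control, 0.936 in HOCl, 1.28 in E07, 0.973 in D11, 0.874 in D06 and 0.985 in BPR21 mice. Of the 70 libraries with vst values, 5 had a mean correlation under 0.94 with the others: BPR21 mice 11 and 12, D06 mouse 5, D11 mouse 10 and HOCl mouse 7. Calls of the heat shock genes are given without these 5 as well.

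Per kilobase of the canonical transcript, Hspa8, the constitutive cytosolic HSP70, was the most abundant of the genes, with a mean of 178 CPM (counts scaled to the total of the library) per kb over all mice. It was followed by Hsp90ab1, the constitutive HSP90, at 112, by Hspe1, the HSP10 lid, at 49.5, and by Hsp90aa1, the inducible HSP90, at 35.1. Hspd1 (HSP60) and the J protein gene Dnajb1 had 14 and 13.1, and the regulator Hsf1 and the exchange factor gene Hsph1 had 4.63 and 4.60. The inducible HSP70 genes came last, with 0.444 for Hspa1b and 0.213 for Hspa1a. Dividing by all annotated exon bases instead exchanged neighbours in this order, Hsp90ab1 then coming before Hspa8 and Hsp90aa1 before Hspe1. The 10 genes together took 0.049% to 0.212% of the counts of a mouse, with group medians from 0.0849% in D06 mice to 0.121% in BPR21 mice.

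Hsph1 encodes an HSP110 protein, a nucleotide exchange factor for HSP70. Its vst values ran from 8.14 over a median of 8.54 to 8.87 in control mice, and from 8.25 over 8.71 to 8.94 in HOCl mice. E07 mice lay in the same range, from 8.19 over 8.51 to 8.89. D11 mice reached from 8.19 over 8.88 to 9.57 and D06 mice from 8.15 over 9.08 to 9.97. BPR21 mice had the highest and most spread values, from 8.59 over 9.10 to 11.26. No group was separate from another, but 9 of 12 BPR21 mice, 8 of 12 D06 mice and 6 of 12 D11 mice were above every control mouse, against 1 of 11 HOCl and 1 of 12 E07 mice. The SD was 0.87 in BPR21 and 0.56 in D06 mice and 0.20 in both control and HOCl mice.

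Dnajb1, the J protein that partners inducible HSP70, showed the same pattern. Its values ran from 8.89 over 9.20 to 9.68 in control, 8.98 over 9.30 to 9.98 in HOCl and 8.88 over 9.09 to 9.44 in E07 mice. In D11 mice they ran from 9.17 over 9.53 to 10.23, in D06 mice from 9.14 over 9.70 to 10.50 and in BPR21 mice from 9.27 over 9.61 to 11.08. All 12 BPR21 mice lay above the control median, and 6 of them were above every control mouse, as were 6 D06 and 5 D11 mice.

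**Figure D1:**
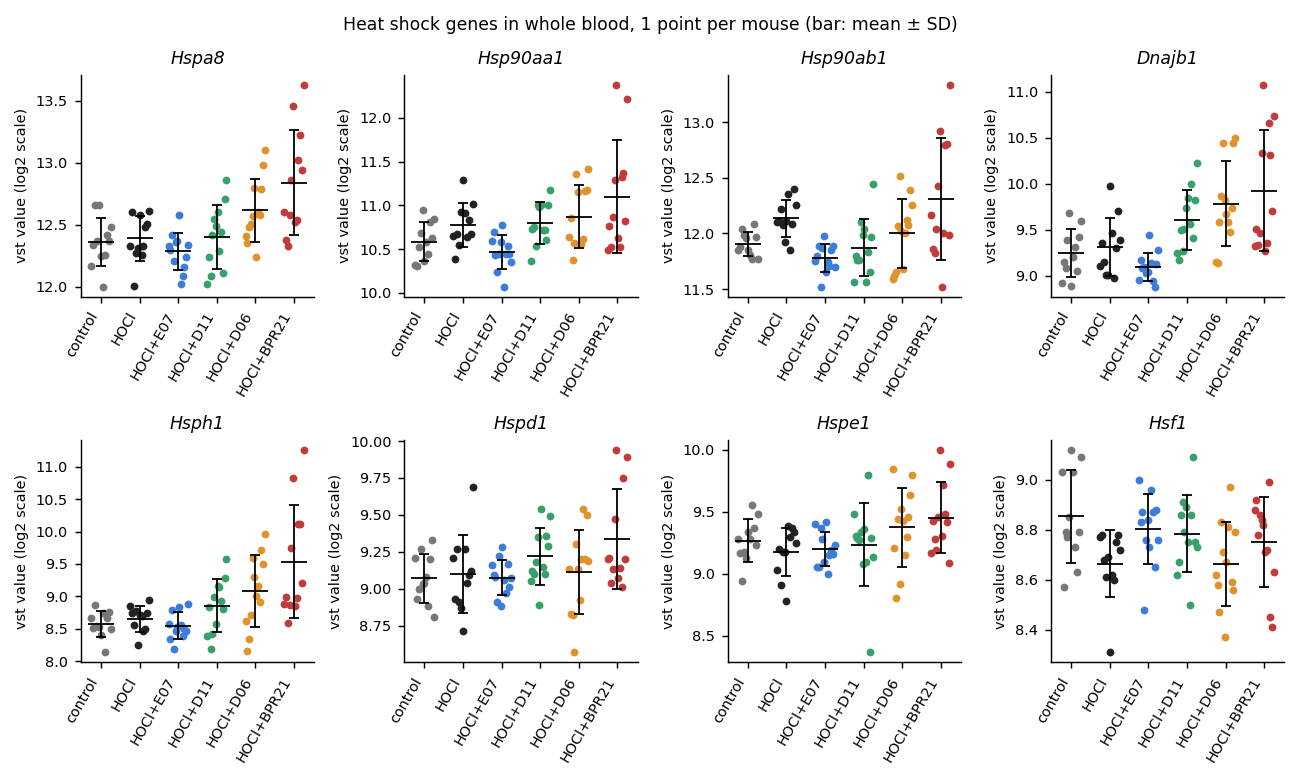
Values of 8 heat shock genes in whole blood of each mouse (y axis, vst on a log2 scale) by group (x axis); black bars give the mean ± SD (n = 11 or 12 mice). Above every control mouse lie 9 of 12 BPR21 mice in Hsph1, 6 each in Hspa8, Hsp90ab1 and Dnajb1 and 5 in Hsp90aa1, with some far above, and the others overlap with the control mice.

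Hspa8 varied within a narrower band. Values were 12.00 to 12.66 in control mice (median 12.37), 12.01 to 12.61 in HOCl mice (12.33), 12.02 to 12.58 in E07 mice (12.31) and 12.02 to 12.86 in D11 mice (12.43). D06 mice ranged from 12.24 to 13.10 (12.57) and BPR21 mice from 12.33 to 13.63 (12.73), and 4 and 6 of them, respectively, lay above every control mouse. The lowest values of the groups lay within 12.00 to 12.33, and their highest within 12.58 to 13.63.

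The inducible HSP70 genes Hspa1a and Hspa1b were close to the limit of detection. Hspa1b had 0 to 49 counts in control mice (median 4), 0 to 35 in HOCl mice (13), 0 to 18 in E07 mice (3), 0 to 66 in D11 mice (12) and 0 to 59 in D06 mice (9.5). BPR21 mice had 1 to 125 counts (26), and 10 of the 12 had at least 10 reads, compared with 1 of 12 E07 mice. Hspa1a had at most 75 counts, and its medians lay between 1.5 in D11 and 6.5 in BPR21 mice. These intronless genes are near copies: 40.5% of the stretches of 150 bases of the Hspa1b transcript also occur in Hspa1a, so reads could be split between them or lost, and their separate values are uncertain. Of the longest Hspa1b transcript, 0 such stretches occur in Hspa8.

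**Figure D2:**
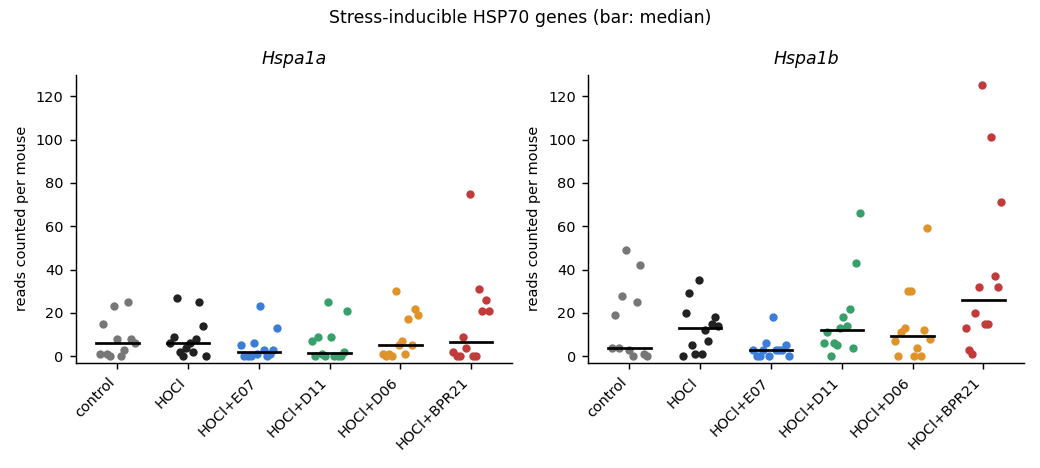
Reads counted on Hspa1a and Hspa1b in each of 71 mice (y axis, counts) by group (x axis), with bars at the medians. Most mice lie under 30 counts, and the highest value of each gene, 75 and 125, is in the BPR21 group.

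Hsp90aa1 values were 10.31 to 10.95 in control mice (median 10.58), 10.39 to 11.29 in HOCl mice (10.67) and 10.07 to 10.78 in E07 mice (10.45). They were 10.37 to 11.18 in D11 mice (10.74), 10.38 to 11.42 in D06 mice (10.75) and 10.49 to 12.38 in BPR21 mice (10.85). Hsp90ab1 stood apart from the other cytosolic genes in that HOCl mice were high too: 11.85 to 12.40 (12.11), with 7 of 11 above every control mouse (11.77 to 12.09, median 11.88). E07 mice had 11.52 to 11.98 (11.78), D11 mice 11.56 to 12.45 (11.81), D06 mice 11.59 to 12.52 (12.04) and BPR21 mice 11.52 to 13.34 (12.10). E07 mice thus lay low for both HSP90 genes, and 12 of 12 were below the HOCl median for Hsp90ab1.

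The mitochondrial genes Hspd1 and Hspe1 and the regulator Hsf1 varied little. Group means lay between 9.07 and 9.34 for Hspd1, between 9.17 and 9.45 for Hspe1 and between 8.66 and 8.85 for Hsf1. BPR21 mice had the highest mean for both chaperonin genes, with 4 and 3 of 12 mice above every control mouse, but not for Hsf1, for which no mouse of any HOCl-injected group exceeded the control mice. All groups overlapped for these genes.

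Ordered by group means, BPR21 mice came first for 7 of the 8 genes and control mice first for Hsf1, and E07 mice came last for the 5 cytosolic chaperone genes. Neighbours in this order could not be told apart: in a limma fit of all 6 groups, 0 of the 5 neighbouring pairs of any gene reached an FDR of 0.05. Over all 15 pairs of groups, Dnajb1 was called in 5, Hsph1 in 4, Hspa8 and Hsp90aa1 in 3 each, Hsp90ab1 in 2, and Hspd1, Hspe1 and Hsf1 in 0. When the 5 libraries that stand apart were left out, these counts were 4 for Dnajb1 and Hsph1 each, 1 each for Hspa8, Hsp90aa1 and Hsp90ab1, and 0 for the other genes. The share of all genes called in these pairs was 4.86% for HOCl, 0% for E07, 0.105% for D11, 8.2% for D06 and 3.86% for BPR21 against control mice. It was 6.48% for E07, 0.0666% for D11, 0.78% for D06 and 1.41% for BPR21 against HOCl mice. Among the 4 groups given HOCl with E07, D11, D06 or BPR21 it was 9.67% for D06 and 6.68% for BPR21 against E07, 0.343% for BPR21 against D06, 0.0476% for BPR21 against D11 and 0% in the other 2. A gene is called here at an FDR of at most 0.05 over all genes and a fold change of at least 1.3.

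HOCl injection was compared with PBS to ask what the induced disease does to blood. None of the 8 genes with vst values was called, while 521 of 10508 genes (4.96%) were. The members' differences had a median of 0.051 on the log2 scale, against -0.016 over all genes. Hsp90ab1 came nearest, 0.23 ± 0.072 (SE) higher on the log2 scale in HOCl mice (11 against 11, FDR = 0.0595), with 10 of 11 HOCl mice above the control median. Hsf1 was 0.19 ± 0.078 lower (FDR = 0.183), with 11 of 11 HOCl mice below the control median. At an unadjusted p under 0.05, these were the 2 genes that passed, and 1885 of all genes did. Hspa8 (0.026 ± 0.086), Dnajb1 (0.07 ± 0.12), Hsph1 (0.08 ± 0.089), Hspd1 (0.031 ± 0.10) and Hspe1 (-0.094 ± 0.084) were not called. In the test on counts of the whole table (edgeR, 2.46% of genes called), Hspa1a and Hspa1b were not called (FDR = 0.875 and 1). Values scaled by the total count instead shift all genes by a median of -0.46 in this comparison and turn the sign of 7 of the 10 genes, whose median (over the 8 with vst values) was -0.44 on that scale. On it, 5 of the 8 were called, all lower, and so were 52% of all genes in either direction. The erythroid list moved in this comparison, with 29 of 34 genes called higher, as were 3 of 12 neutrophil and 5 of 8 platelet genes, and their part in the members' values was not tested.

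E07 mice had lower HSP90 transcripts than HOCl mice, by amounts under the fold threshold. Hsp90ab1 differed by -0.36 ± 0.069 (log2, 0.781-fold, FDR = 0.000808) and Hsp90aa1 by -0.31 ± 0.092 (0.807-fold, FDR = 0.0226), so 0 of 8 genes were called against 829 of all genes (7.89%). At the FDR alone these 2 passed, as did 15% of all genes. Hsp90ab1 was called in 2 of 23 fits that left out 1 mouse, those without HOCl mouse 5 or HOCl mouse 9, at -0.38 and -0.39. Dnajb1 differed by -0.22 ± 0.10 (FDR = 0.148), and 11 of 12 E07 mice lay below the HOCl median. Hspa1b was 0.203-fold the HOCl level in edgeR on the whole table (log2 difference -2.30 ± 0.80, FDR = 0.0657, 7.13% of genes called), and was called when edgeR ran on the genes of the vst table and the inducible genes (FDR = 0.0274, 11.2% of genes called). Hspa8 (-0.10 ± 0.076), Hsph1 (-0.11 ± 0.086), Hspd1 (-0.027 ± 0.086), Hspe1 (0.028 ± 0.076) and Hsf1 (0.14 ± 0.067) were not called. With total-count scaling, which shifts all genes by 0.49, both HSP90 genes took the opposite sign (Hsp90ab1 0.11, Hsp90aa1 0.14) while staying below that median, and 64.6% of all genes were called. On that scale 4 of the 8 genes were called, all higher in E07 mice: Hspa8 (0.41), Hspd1 (0.50), Hspe1 (0.51) and Hsf1 (0.67). Hspa1b was called lower (-0.54). With all 6 groups in 1 fit, neither HSP90 gene passed the FDR (0.0513 for Hsp90ab1 and 0.177 for Hsp90aa1), and without the 5 libraries that stand apart both did (-0.34, FDR = 0.00144, and -0.30, FDR = 0.0344). The erythroid share of counts fell by 5.49 percentage points (adjusted p = 0.00018, permutation test), and with an erythroid score as covariate 0 genes in all were called, Hsp90ab1 differing by -0.24 (FDR = 0.368) and Hsp90aa1 by -0.19 (FDR = 0.594). Of other cell lists, all 8 platelet, 3 of 12 neutrophil, 1 of 10 monocyte and 3 of 11 immediate early genes were called lower in E07 than in HOCl mice, and 7 of 10 B cell and 2 of 4 eosinophil genes higher. The part of these lists in the HSP90 values was not tested. E07 against control mice gave 0 of 8 called, 1 of all genes (0.00952%), and differences of the 8 genes from -0.15 ± 0.087 (Dnajb1, FDR = 0.750) to 0.0037 ± 0.068 (Hspd1, FDR = 0.994).

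D11 mice differed from HOCl mice by 0.29 ± 0.13 for Dnajb1 (FDR = 0.303) and by -0.26 ± 0.094 for Hsp90ab1 (FDR = 0.215). None of the 8 was called, and 6 of all genes were (0.0571%). Against control mice, Dnajb1 was 0.36 ± 0.12 higher (1.29-fold, FDR = 0.127), with 11 of 12 D11 mice above the control median, and 0 of 8 genes were called, as were 8 of all genes (0.0761%). Dnajb1 was called in 1 of 23 fits that left out 1 mouse, that without control mouse 12 (0.40, FDR = 0.0379). Its FDR over these fits reached 0.221. Hsph1 was 0.28 ± 0.13 higher than in control mice (FDR = 0.269).

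D06 mice had higher Dnajb1 and Hsph1 than control mice, and these were the 2 of 8 genes called, both upward. Dnajb1 was 1.46-fold the control level (log2 difference 0.54 ± 0.15, FDR = 0.0163) and Hsph1 1.42-fold (0.51 ± 0.16, FDR = 0.0466), each in 10 of 12 mice above the control median. Of all genes, 828 (7.88%) were called and 7.27% were called upward, so the background in this comparison was high. Hspa8 (0.25 ± 0.10, FDR = 0.109) and Hsp90aa1 (0.28 ± 0.12, FDR = 0.150) were not called, nor were Hsp90ab1 (0.093 ± 0.10), Hspd1 (0.04 ± 0.10), Hspe1 (0.11 ± 0.11) and Hsf1 (-0.19 ± 0.085). Dnajb1 was called in 23 of 23 fits that left out 1 mouse and Hsph1 in 7 of 23. Without the 5 libraries that stand apart, Dnajb1 was called (0.48, FDR = 0.0280) and Hsph1 was not (0.46, FDR = 0.0731). The erythroid share was higher by 3.19 percentage points in D06 mice (adjusted p = 0.0159, permutation test), and with the erythroid score as covariate Dnajb1 differed by 0.25 (FDR = 0.698) and Hsph1 by 0.38 (FDR = 0.593), which ended both calls. How many of all genes stayed called with this score is not given here, so the loss of these 2 calls has no background. In this comparison 6 of 8 platelet, 3 of 4 eosinophil, 3 of 12 neutrophil and 1 of 10 monocyte genes were called higher too, and 1 monocyte gene lower, and their part in the values of Dnajb1 and Hsph1 was not tested. Scaled by total counts, where all genes shift by -0.57, neither was called (0.071 and 0.082), and they lay 0.64 and 0.65 above that median, while Hsp90ab1 (-0.48), Hspd1 (-0.51) and Hsf1 (-0.79) were called lower, as were 64.2% of all genes. Against HOCl mice, 0 of 8 were called, with 0.47 ± 0.16 for Dnajb1 (FDR = 0.178) and 0.43 ± 0.16 for Hsph1 (FDR = 0.267), and 14 of all genes (0.133%).

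BPR21 mice had the largest differences, and in the fit of the 2 groups compared none was called. Against HOCl mice, Hsph1 was 1.84-fold higher (log2 difference 0.88 ± 0.24, FDR = 0.0825), Dnajb1 1.53-fold (0.61 ± 0.20, FDR = 0.144) and Hspa8 1.37-fold (0.45 ± 0.13, FDR = 0.103), each with 11 of 12 mice above the HOCl median. All 8 differences were positive, with a median of 0.30 against -0.00096 over all genes. At an unadjusted p under 0.05, 4 of the 8 genes and 1474 of all genes passed, and 67 of all genes (0.638%) were called. Hsp90aa1 (0.32 ± 0.19), Hsp90ab1 (0.17 ± 0.16), Hspd1 (0.24 ± 0.12), Hspe1 (0.28 ± 0.10) and Hsf1 (0.087 ± 0.077) were smaller. Hspa1b was 3.06-fold higher in edgeR on the whole table (1.61 ± 0.64, FDR = 0.162, 0.152% of genes called) and Hspa1a 1.85-fold (0.88 ± 0.86, FDR = 0.709).

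The call for BPR21 depended on the fit. With all 6 groups in 1 fit, which then share 1 estimate of the spread per gene, Hsph1 (FDR = 0.00584), Hspa8 (FDR = 0.0132) and Dnajb1 (FDR = 0.0267) were called at the same differences, with 1.41% of all genes. In that fit without the 5 libraries that stand apart, only Hsph1 of the 8 was called (0.75, FDR = 0.0244), with Dnajb1 at 0.57 (FDR = 0.0584) and Hspa8 at 0.35 (FDR = 0.0761) and 1.16% of all genes called. With edgeR on counts of the vst genes, Hsph1 was called (1.40, FDR = 0.0163, 0.857% of genes called), and with DESeq2 Hsph1, Dnajb1 and Hspa8 were (2.53%). Hsph1 was called in 1 of 23 fits that left out 1 mouse, that without BPR21 mouse 3 (0.97, FDR = 0.0485), and its FDR over these fits reached 0.135. In the fit of the 2 groups without these libraries, 0 were called, Hsph1 at 0.75 (FDR = 0.0955) and Hspa8 at 0.35 (FDR = 0.182). The erythroid share differed by -3.01 percentage points between BPR21 and HOCl mice (adjusted p = 0.0159, permutation test), and with the erythroid score as covariate Hsph1 (1.03, FDR = 0.0192), Dnajb1 (0.74, FDR = 0.0368) and Hspa8 (0.51, FDR = 0.0390) were called. The share of all genes called with this score is not given here, so these calls have no background. Of 10 monocyte genes, 4 were called lower in BPR21 than in HOCl mice, and their part in these results was not tested.

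Against control mice, BPR21 mice had 1.95-fold higher Hsph1 (0.96 ± 0.24, FDR = 0.0628), 1.60-fold Dnajb1 (0.68 ± 0.19, FDR = 0.0754) and 1.39-fold Hspa8 (0.48 ± 0.13, FDR = 0.0709), with all 12 mice above the control median for the first 2. Hsp90aa1 (0.51 ± 0.19, FDR = 0.137) and Hsp90ab1 (0.40 ± 0.16, FDR = 0.155) followed. None of the 8 was called, 6 passed at an unadjusted p under 0.05 (2095 of all genes did), and 53 of all genes (0.504%) were called. The 6-group fit called 5 genes, all upward: Hspa8, Hsp90aa1, Hsp90ab1, Dnajb1 and Hsph1, with 3.86% of all genes. Without the 5 libraries that stand apart it called 2, Hsph1 (0.82, FDR = 0.0109) and Dnajb1 (0.62, FDR = 0.0440), with 0.704% of all genes. Leaving out control mouse 12 or BPR21 mouse 1 gave calls for Hsph1, Dnajb1 and Hspa8, as leaving out BPR21 mouse 2, 3 or 4 did for Hsph1. Of 23 such fits, Hsph1 was thus called in 5, and Dnajb1 and Hspa8 in 2 each. In the fit of the 2 groups without those libraries Hsph1 was not called (0.82, FDR = 0.0800), nor was it with the erythroid score as covariate (0.63, FDR = 0.727). Of the cell lists, 5 of 10 monocyte and 2 of 7 NK cell genes were called lower in BPR21 than in control mice and 1 of 8 platelet genes higher, and their part in these results was not tested.

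**Figure D3:**
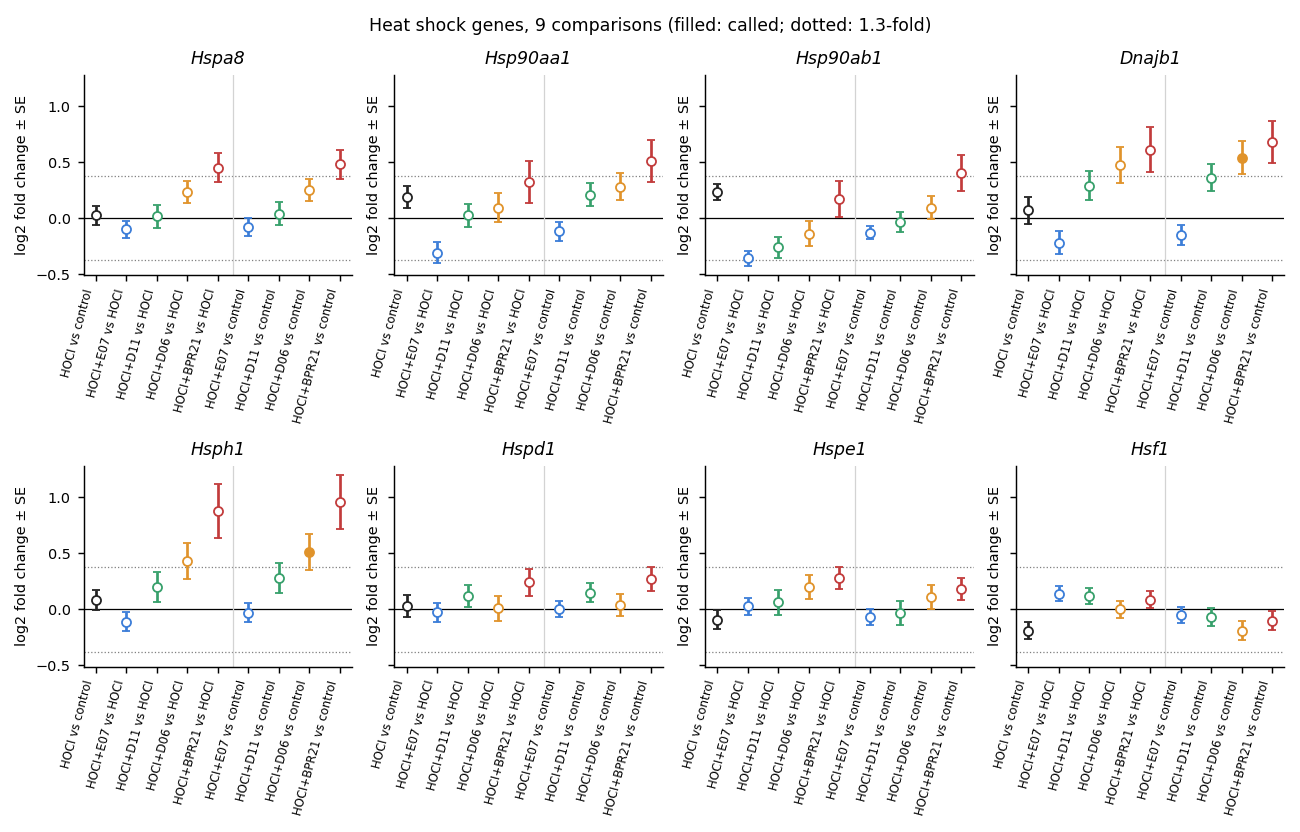
Log2 fold change ± SE of vst values (y axis) of 8 heat shock genes in 9 comparisons (x axis), limma fit of the 2 groups compared. Filled points pass both thresholds, which only Dnajb1 and Hsph1 in D06 against control mice do; the largest values, 0.96 and 0.88, are those of Hsph1 in BPR21 mice.

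The 4 groups given HOCl with E07, D11, D06 or BPR21 were also compared with each other in the 6-group fit. Its shared spread may understate the error where BPR21 mice are compared. The SD of Hsph1 was 0.87 in BPR21 and 0.21 in E07 mice, and that of Dnajb1 0.66 and 0.15. For Hsph1 in BPR21 against HOCl mice, the SE was 0.19 in this fit and 0.24 in the fit of 2 groups. Pairs of these 4 groups were not fitted alone. Of 48 differences (6 pairs of groups, 8 genes), 8 were called, and all of them set E07 mice below D06 or BPR21 mice. BPR21 exceeded E07 mice by 0.99 ± 0.19 for Hsph1 and 0.83 ± 0.16 for Dnajb1 (FDR = 0.00104 for each), with 6.68% of all genes called in that pair. D06 exceeded E07 mice by 0.69 ± 0.16 for Dnajb1 (FDR = 0.00157) and 0.54 ± 0.19 for Hsph1 (FDR = 0.0430), with 9.67% of all genes called. Without the 5 libraries that stand apart, 7 of the 8 were called, Hsp90aa1 in D06 against E07 mice being the exception (0.36, FDR = 0.0538), and 1.13% of all genes were called for BPR21 and 8.92% for D06 against E07 mice. Hsph1 and Dnajb1 were then 0.85 and 0.77 higher in BPR21 (FDR = 0.00925 for each) and 0.49 and 0.63 higher in D06 than in E07 mice (FDR = 0.0438 and 0.00291). Between BPR21 and D06 mice, Hsph1 differed by 0.45 ± 0.19 (FDR = 0.275) and Dnajb1 by 0.14 ± 0.16 (FDR = 0.748), and between D11 and E07 mice, Dnajb1 differed by 0.51 ± 0.16 (FDR = 0.0884).

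The cytosolic chaperone genes varied together from mouse to mouse. Within the 12 BPR21 mice, Pearson's r among Hspa8, Hsp90aa1, Hsp90ab1, Dnajb1 and Hsph1 was 0.88 to 0.96 over 10 pairs, and Spearman's rho 0.77 to 0.94 (permutation tests, adjusted p at most 0.000532 and 0.0125, over 56 relations). With the 2 mice farthest from the median left out, r remained 0.82 to 0.96. Among the 58 mice of the other groups, after group means were taken off, r was 0.53 to 0.65 and rho 0.46 to 0.63 (adjusted p at most 0.000693 and 0.00415), and 0.49 to 0.59 without the 2 farthest mice. Hsph1 itself had r = 0.96 with Hspa8 in BPR21 mice and 0.62 in the others. Over all 70 mice, the correlation of Hsph1 with the other 10507 genes had a median near 0 and lay between -0.30 and 0.29 at the 5th and 95th percentiles. Correlations over 12 mice spread more widely, so this is no background for r within BPR21 mice, and none is given for them.

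The mitochondrial genes joined this only in part. In BPR21 mice, pairs with Hspd1 or Hspe1 had r from 0.63 to 0.87. Without the 2 farthest mice, Hspe1 had r from 0.04 (with Hspa8) to 0.33 (with Hsph1), so its relation rested on those mice. Hspd1 kept r from 0.45 (with Dnajb1) to 0.61 (with Hspa8) with the cytosolic chaperone genes. In the other groups, Hsph1 had r = 0.53 with Hspd1 (adjusted p = 0.000436, permutation test) and 0.07 with Hspe1 (adjusted p = 0.771), although these genes share their promoter region. Hsf1 had no detected relation to the rest, with r from -0.34 to 0.09 in BPR21 mice and -0.15 to 0.15 in the others (smallest adjusted p = 0.382).

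**Figure D4:**
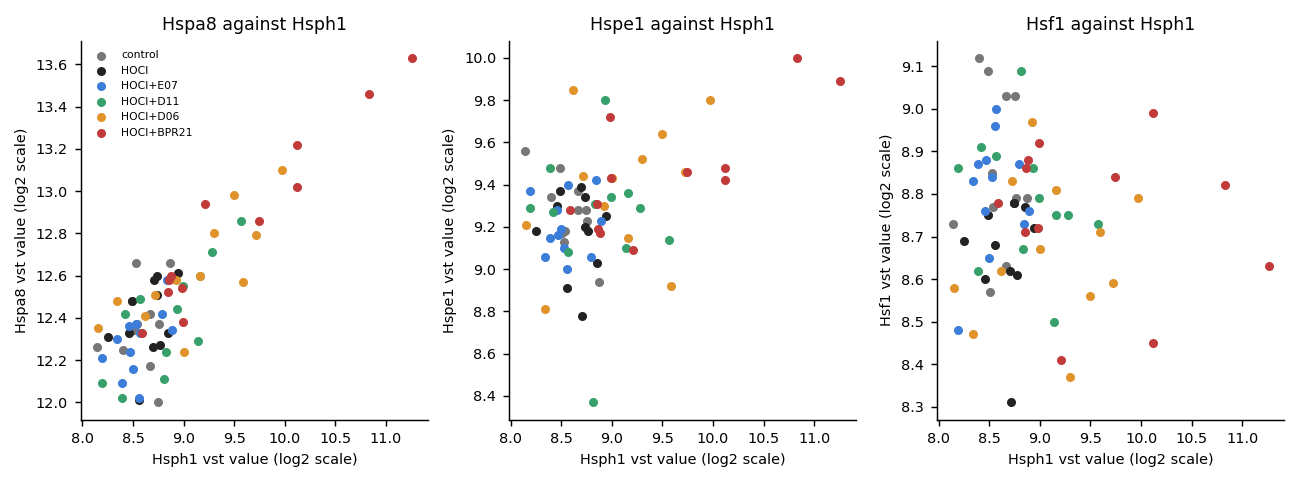
Hspa8, Hspe1 and Hsf1 (y axes) against Hsph1 (x axes) in 70 mice, vst values on a log2 scale, coloured by group. Hspa8 climbs with Hsph1 up to the BPR21 mouse at 11.26 (r = 0.96 within BPR21 mice), while Hsf1 does not (r = -0.15).

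High values of several genes were found in the same animals. BPR21 mice 6 and 12 had 7 of the 8 genes above every control mouse, mice 5 and 10 had 6 and mouse 9 had 5, while mice 3, 4 and 7 had 0. Among D06 mice, mouse 11 had 7 and mouse 12 had 6, and among D11 mice, mouse 12 had 6. Of the 11 HOCl mice, mouse 12 had the most, 4, and of E07 mice only mouse 12 had any, 1. The share of all genes above every control mouse is not given here, so these counts, by mouse or by gene, have no background. BPR21 mouse 12 is a library that stands apart (mean r = 0.924) with a size factor of 0.595, whereas BPR21 mouse 6, with Hsph1 at 10.83, had a mean r of 0.963 and a size factor of 0.998. The erythroid share of the 5 high BPR21 mice was 7.81% to 13.1%, within 6.60% to 13.1% for the whole group, and the immediate early genes, which respond within minutes to stimulation, took 0.0472% to 0.0745% of their counts, against 0.0573% to 0.152% in the other 7. The part of these in the high values was not tested.

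The genes most like each member over the 70 mice, after group means were taken off, included other chaperone genes. Dnaja1, a J protein of HSP70, was the nearest gene to Hspa8 (r = 0.78), Hsp90aa1 (r = 0.70) and Dnajb1 (r = 0.72). Stip1, which hands clients from HSP70 to HSP90, was the nearest to Hsp90ab1 (r = 0.78), Hsph1 (r = 0.78) and Hspd1 (r = 0.65). The next in order for these 6 genes included Fkbp4 and Chordc1, which bind HSP90, Ahsa2, an activator of HSP90, and Cacybp, as well as the RNA-binding protein genes Hnrnpm for Hsp90ab1 (r = 0.64) and Hnrnpa2b1 for Hspd1 (r = 0.59). The 3 nearest to Hspe1 were Gimap4 (r = 0.67) and the ribosomal protein genes Rpl5 and Rps3 (r = 0.65 each), and the nearest to Hsf1 was Prkch (r = 0.54).

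Beyond these 10 genes, 76 further genes of the chaperone system were examined in 6 lists, of which 63 had vst values. D06 against control mice gave the most calls, 10 of 63 higher and 0 lower, where 7.27% of all genes were higher. HOCl against control mice gave 6 higher (4.79% of all genes), E07 against HOCl mice 7 lower (7.01%), and BPR21 mice 2 higher against HOCl (0.238%) and 2 against control mice (0.152%). Comparisons of D11 with either group, of D06 with HOCl and of E07 with control mice gave 0. The counts without the 5 libraries that stand apart were 10 higher and 1 lower for D06, 4 higher for HOCl, 7 lower for E07 and 1 higher in each BPR21 comparison. D06 against HOCl mice then gave 1 higher. The medians of the 63 genes stayed within -0.036 to 0.065 in all 9 comparisons, close to those of all genes.

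The J protein genes called differed between comparisons. Dnajb2, Dnaja4 and Dnajb6 of the HSP70 list and Hscb, the mitochondrial J protein of iron-sulphur cluster assembly, rose by 1.37 ± 0.26, 1.25 ± 0.26, 1.09 ± 0.26 and 1.03 ± 0.30 (log2) in HOCl compared with control mice, with FDR from 0.00420 to 0.0387. They were lower in E07 than in HOCl mice, at -1.5 ± 0.24, -1.58 ± 0.23, -1.26 ± 0.22 and -1.05 ± 0.24 (FDR from 0.000115 to 0.00334). In D06 compared with control mice they rose by 1.23 ± 0.24, 0.98 ± 0.29, 0.88 ± 0.24 and 1.12 ± 0.26 (FDR from 0.00174 to 0.0240), where 32 of 34 erythroid genes were called higher too. In BPR21 mice these 4 genes were not called, though their means lay between those of control and HOCl mice. The mean of Hscb was 12.16 in BPR21, 11.33 in control and 12.36 in HOCl mice. Dnajb2 levels, for example, were 9.22 to 11.58 in control mice (median 10.31), 10.30 to 13.03 in HOCl mice (11.73), 9.32 to 10.99 in E07 mice (9.94) and 9.30 to 12.72 in BPR21 mice (11.24). The erythroid genes moved alongside: 29 of 34 were called higher in HOCl than in control mice (median 1.18) and 30 of 34 lower in E07 than in HOCl mice (median -1.14). None was called in the BPR21 comparisons, where their median was 0.66 against control and -0.49 against HOCl mice. With the erythroid score as covariate, 0 of the 63 genes were called in HOCl against control, E07 against HOCl and D06 against control mice. Of all genes, that score left 1 called in the first of these comparisons and 0 in the second, so the loss was not particular to the 63. For D06 the share of all genes with the score is not given here. Against HOCl mice, 7 of the 63 were called with the score in BPR21 mice and 1 in D06 mice. Hscb was not called in HOCl against control mice without the 5 libraries that stand apart (0.85, FDR = 0.0523), and the other calls of these 4 genes remained.

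In BPR21 mice the called genes were Dnaja1 and Ptges3, the HSP90 co-chaperone p23. Dnaja1 ranged from 9.53 to 10.49 in control mice (median 10.02), from 9.85 to 10.66 in HOCl mice (10.07) and from 10.14 to 12.10 in BPR21 mice (10.91). It was 0.80 ± 0.19 higher than in HOCl mice (FDR = 0.0461) and 0.93 ± 0.19 higher than in control mice (FDR = 0.0233). Ptges3 was 0.53 ± 0.10 (FDR = 0.0110) and 0.43 ± 0.10 higher (FDR = 0.0384). With the 5 libraries that stand apart left out, Dnaja1 was called against control mice (0.80, FDR = 0.0413) and not against HOCl mice (0.66, FDR = 0.0798), and Ptges3 against HOCl (0.46, FDR = 0.0216) and not against control mice (0.39, FDR = 0.0515). With the erythroid score both were called against HOCl and neither against control mice. In D06 mice Dnaja1 was 0.68 ± 0.12 above control mice (FDR = 0.000998), where the HSP90 co-chaperones Stip1 (0.39 ± 0.11), Ahsa1 (0.46 ± 0.11) and Chordc1 (0.42 ± 0.11) and the exchange factor Bag1 (0.82 ± 0.21) rose as well. Dnaja1 in HOCl mice was 0.14 ± 0.10 above control mice (FDR = 0.536) and in E07 mice 0.029 ± 0.10 above HOCl mice (FDR = 0.886).

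Hspa9, Bag3 and Hspb1 were called in 0 of the 9 comparisons. Hspa9, the mitochondrial HSP70, differed by at most 0.20 on the log2 scale in size, in D11 against control mice (FDR = 0.245). Bag3, an exchange factor that HSF1 is known to raise, differed by -0.036 ± 0.11 in HOCl against control mice and by 0.072 ± 0.12 in BPR21 against HOCl mice. Hspb1, the small heat shock protein HSP27, was near the lower end of the scale, 6.06 (a gene without reads) to 7.46, and its -0.36 ± 0.11 in E07 against HOCl mice (FDR = 0.0308) was under the fold threshold, whereas edgeR on counts called it (-2.07, FDR = 0.0394). Hsf2, a second heat shock factor, had no vst values, with medians of 76 raw counts in control, 42 in HOCl, 65.5 in E07, 50 in D11, 48 in D06 and 62 in BPR21 mice, not scaled by library and not tested.

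**Figure D5:**
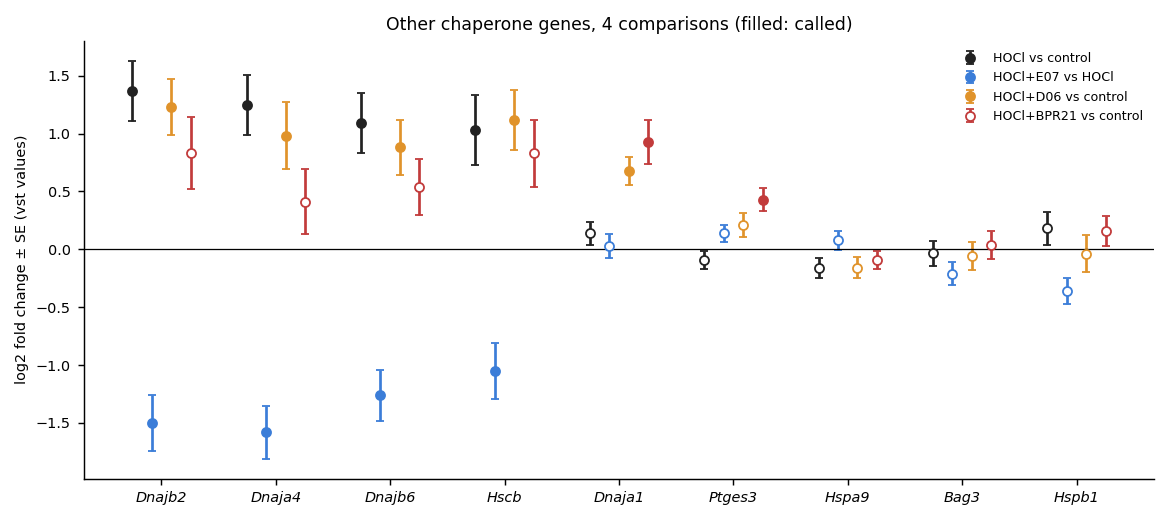
Log2 fold change ± SE of vst values (y axis) of 9 other chaperone genes (x axis) in 4 comparisons; filled points pass both thresholds. Dnajb2, Dnaja4, Dnajb6 and Hscb are positive in HOCl and D06 mice and negative in E07 mice. Dnaja1 is filled in D06 and BPR21 mice, and Ptges3 is filled in BPR21 mice.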

How the data were processed

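Terminal whole blood of 71 mice was examined by RNAseq. Per the study's methods, RNA was poly A selected and depleted of globin transcripts, and the libraries kept strand information. Reads were trimmed by the authors with Cutadapt, aligned to mm39 with STAR and counted with FeatureCount, and versions and annotation release are not given in the sources used here. The deposited counts are raw and cover 55416 genes. The deposited log2-like values were made by the authors with the vst function of DESeq2, genes that do not code for protein and genes with low values were removed, and the table covers 10508 genes and 70 mice. Groups were taken from the sample titles, since the genotype field reads HOCL for every mouse, and columns without a sample numbered 0. Genes were matched by symbol, and transcript lengths are those of GENCODE vM39 (GRCm39).

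Each comparison of vst values used limma 3.58.1 on its 2 groups alone. Genes were called at a Benjamini-Hochberg FDR of at most 0.05 over all genes and a fold change of at least 1.3, as in the study. Hspa1a and Hspa1b were tested with edgeR 4.0.16 (quasi-likelihood, TMM) on all 29569 genes with any count. Permutation tests were two-sided with 100000 resamples. DESeq2 1.42.0 served as an alternative, as did a fit of all 6 groups, edgeR without a filter, log2 of CPM plus 1, the FDR alone, the mouse number as block and an erythroid score as covariate. The versions of R and Python were 4.3.3 and 3.11.15. The members, gene lists and tests were chosen with earlier results of these data known. Named genes were the 10 members, in each comparison the 4 called genes of the chaperone lists with the largest fold change, Hsf2, Hspa9, Bag3 and Hspb1, and the 3 genes most correlated with each member. Ahsa1, Chordc1, Stip1 and Bag1 fall outside the rule on fold change and were named after their values were seen.

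Same-numbered mice are different animals. Same-numbered pairs deviated together with r over 0.1 in 4 of 10 pairs for HOCl and control mice (mean 0.0476), and in 2 to 7 of 11 pairs in the other 8 comparisons (means 0.00999 to 0.146, the highest for E07 against control mice), and the number was not treated as pairing. No 2 libraries were alike within sampling noise (smallest chi-square per degree of freedom 17.4). On simulated data for BPR21 against HOCl mice (10270 genes), limma recovered 39% of genes changed 1.5-fold and 77% of those changed 2-fold with 1 false call, edgeR 41% and 75% with 2, and DESeq2 45% and 80% with 12. The simulation gave both groups the same dispersion for a gene. In the data the SD of Hsph1 was 0.87 in BPR21 and 0.20 in HOCl mice, so these rates need not hold for the members. Each mouse had 11932855 to 15948972 counts, so genes with few reads are measured least precisely. P-values set a difference or a correlation against the variation between mice.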

Additional observations from a re-analysis of the deposited data

Results flagged for a closer look

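Differences between the groups given E07, D11, D06 or BPR21 under the same HOCl injection were tested in the limma fit of all 6 groups, and 8 passed an FDR of 0.05 and a fold change of 1.3, given here as log2 differences of vst values. BPR21 exceeded E07 mice by 0.99 for Hsph1, 0.83 for Dnajb1 and 0.56 for Hspa8 (FDR = 0.00104 for each), by 0.63 for Hsp90aa1 (FDR = 0.00356) and by 0.53 for Hsp90ab1 (FDR = 0.00364). D06 exceeded E07 mice by 0.69 for Dnajb1 (FDR = 0.00157), by 0.40 for Hsp90aa1 (FDR = 0.0416) and by 0.54 for Hsph1 (FDR = 0.0430). The 6-group fit shares 1 estimate of the spread per gene, which may be too small for BPR21 mice, whose values were the most spread for Hsph1 and Dnajb1. Without the 5 libraries that stand apart, an alternative added after seeing the data, 7 of these 8 passed and Hsp90aa1 in D06 against E07 mice did not (0.36, FDR = 0.0538). The mean erythroid share of counts was 7.20% in E07, 10.9% in D06 and 9.67% in BPR21 mice, and its part in these differences was not tested.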

How the results depend on the processing

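The count of heat shock genes called was within 1.5 times the reported one in 243 of 287 recomputations. Most of these left out 1 mouse at a time, 22 or 23 fits per comparison that share nearly all their data. The reported count was 0 except for D06 against control mice. The ratio is therefore no measure of stability. For HOCl against control mice it was 0, and 5 with total-count scaling (52% of all genes called). For E07 against HOCl mice it was 0, and 1 with edgeR on counts (11.2% of all genes) and 2 with DESeq2 (12%). It was 5 with total-count scaling (64.6% of all genes) and 2 with the FDR alone (15%). For D06 against HOCl mice it was 0, and 1 with DESeq2 (1.96% of genes). For BPR21 against HOCl mice it was 0 (0.638% of all genes called). It was 3 with 6 groups in 1 fit (1.41%), 1 with edgeR on counts (0.857%) and 3 with DESeq2 (2.53%). With edgeR on all genes with any count it was 1 (0.152%), and with the erythroid score as covariate 3. For D06 against control mice it was 2 (7.88% of all genes called), and 1 with 6 groups in 1 fit (8.2%). It was 0 with the erythroid score and 1 without the 5 libraries that stand apart. For BPR21 against control mice it was 0 (0.504% of all genes called). It was 5 with 6 groups in 1 fit (3.86%), 2 with edgeR on counts (1.78%) and 4 with DESeq2 (4.91%). With edgeR on all genes it was 2 (0.835%), and with the mouse number as replicate block 4. No share of all genes is given for the counts with the erythroid score, the block, the 5 libraries left out or 1 mouse left out. The block changed no other count of members by over 1.5 times. Leaving out 1 mouse at a time gave 0 to 1 for E07 and BPR21 against HOCl and D11 against control mice, 1 to 2 for D06 against control and 0 to 3 for BPR21 against control mice. Leaving out mice or the 5 libraries, in fits of 2 or 6 groups, and all alternatives for single genes against control mice other than in HOCl mice, were chosen after seeing the data. The causes were not tested.

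All genes called ranged over the alternatives from 1 with the erythroid score to 5457 with total-count scaling for HOCl against control (reported 521). Against HOCl mice they ranged from 0 to 6783 for E07 (829), by the same settings, 0 to 151 for D11 (6), 0 to 158 for D06 (14) and 5 to 255 for BPR21 (67), and against control mice from 0 to 21 for E07 (1), 5 to 174 for D11 (8), 3 to 7039 for D06 (828) and 0 to 676 for BPR21 (53).

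Of 630 recomputed log2 differences of members, 49 changed sign, 28 of them with total-count scaling. There, HOCl against control mice (all genes shift by -0.46) gave Hspa8 -0.47, Hsp90aa1 -0.25, Hsp90ab1 -0.22, Hspa1b -0.027, Dnajb1 -0.40, Hsph1 -0.32 and Hspd1 -0.47. E07 against HOCl mice (0.49) gave Hspa8 0.41, Hsp90aa1 0.14, Hsp90ab1 0.11, Dnajb1 0.25, Hsph1 0.30 and Hspd1 0.50, and D06 against HOCl mice (-0.09) gave Hsp90aa1 -0.014, Hspa1b -0.0045 and Hspd1 -0.042. Against control mice, D11 (-0.36) gave Hspa8 -0.34, Hsp90aa1 -0.15, Hsph1 -0.0028 and Hspd1 -0.19, D06 (-0.57) gave Hspa8 -0.31, Hsp90aa1 -0.27, Hsp90ab1 -0.48, Hspa1b -0.031, Hspd1 -0.51 and Hspe1 -0.43, and BPR21 (-0.38) gave Hspd1 -0.071 and Hspe1 -0.17. With edgeR on counts or on all genes, Hspa8 (-0.026 and -0.024) and Hspd1 (-0.011 and -0.012) changed sign in HOCl against control, Hspd1 in E07 against HOCl (0.013 and 0.011) and against control (-0.002 and -0.00042, and -0.0064 with DESeq2), and Hsf1 in D06 against HOCl mice (0.018 and 0.00046, and 0.022 with DESeq2). Hspa1a in D11 against control mice turned to 0.0099 with edgeR on counts and 0.013 with DESeq2. With the erythroid score, Hsp90aa1 (-0.033) and Dnajb1 (-0.14) changed sign in HOCl against control, Hspa8 (-0.024) in D11 against HOCl, Hspe1 (0.029) in D11 against control, and Hsp90aa1 (-0.021) and Hsp90ab1 (-0.06) in D06 against control mice. Hspe1 in D11 against control mice was 0.046 without the 5 libraries that stand apart. Low counts limit Hspa1a and Hspa1b most.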

Other observations

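The mouse numbers of the labels, whose meaning is not given in the sources used here, ran alongside the high values of Hsph1 and Dnajb1 in D06, BPR21 and D11 mice, with overlap in places. Hsph1 was 8.15 to 8.72 in D06 mice 1 to 4 and 8.92 to 9.97 in D06 mice 5 to 12, 2 ranges that do not overlap. In BPR21 mice the ranges were 8.59 to 8.99 in mice 1 to 4 and 8.85 to 11.26 in mice 5 to 12, and in D11 mice 8.19 to 8.83 and 8.57 to 9.57. Control mice had 8.51 to 8.87 in the 3 mice numbered 1 to 4 and 8.14 to 8.76 in the other 8, and HOCl mice 8.56 to 8.85 and 8.25 to 8.94. Dnajb1 means for mice 1 to 4 and for mice 5 to 12 were 9.41 and 10.18 in BPR21, 9.43 and 9.96 in D06, 9.30 and 9.77 in D11, 9.07 and 9.11 in E07, 9.16 and 9.40 in HOCl and 9.05 and 9.32 in control mice. Hsph1 means of the same sets were 8.83 and 9.89 in BPR21, 8.46 and 9.39 in D06 and 8.46 and 9.06 in D11 mice. They were 8.47 and 8.58 in E07, 8.73 and 8.61 in HOCl and 8.68 and 8.54 in control mice. Not every gene followed: Hspe1 means were 9.26 and 9.55 in BPR21, 9.33 and 9.40 in D06 and 9.34 and 9.18 in D11 mice. Those of Hsf1 were 8.86 and 8.70, 8.62 and 8.68, and 8.76 and 8.80. This division by number was chosen after the values were seen and was not tested. The share of all genes whose ranges separate at the same number is not given here.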
